A study of Mus musculus with 6 samples.

Results

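Cells exchange glucose and lactate with their surroundings through 2 families of membrane carriers, and 8 genes of these families and of their chaperone were followed in Th17 cells with and without the RORγtN275D mutation. The genes are the glucose transporters Slc2a1 (GLUT1), Slc2a3 (GLUT3), Slc2a6 (GLUT6) and Slc2a8 (GLUT8), the monocarboxylate transporters Slc16a1 (MCT1), Slc16a3 (MCT4) and Slc16a6 (MCT7), and Bsg (basigin). They were taken by gene symbol from a list written with earlier results of these data known, and all 8 were found among the 16244 genes of the table. Naive CD4+ T cells from the spleens of WT and RORγtN275D mice were cultured with anti-CD3 and anti-CD28 for 3 days, and 3 RNA-seq libraries of each genotype were analysed. The series' design text names IL-6, IL-1β and IL-23 as the polarizing cytokines of both genotypes. The methods list TGF-β, anti-IL-4 and anti-IFN-γ as well for the pathogenic Th17 condition, so the exact mixture used for these libraries is uncertain. The mutation, a germline knockin made with CRISPR-Cas9 on a C57BL/6 background, is carried in every cell and is not limited to T cells. WT C57BL/6 mice, listed among the resources as C57BL/6NJ, were purchased, and the knockin mice came from another source. Neither the zygosity, age and sex of the donors of these libraries nor the number of mice behind each one is given in the labels. The methods state for the study in general that male and female mice were used. They also give a general age range in weeks, which is not tied to these libraries.

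Glucose crosses the membrane down its gradient through the SLC2 carriers. GLUT1 is the main carrier of activated T cells, GLUT3 has a high affinity for glucose, and GLUT6 and GLUT8 are held largely in intracellular membranes. Lactate made by glycolysis leaves the cell together with a proton through the SLC16 carriers MCT1 and MCT4, both of which need basigin to reach the cell surface. MCT4 is known for lactate export from highly glycolytic cells, while MCT7 is a family member not known as a lactate carrier.

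Promoter sequences are shown to set members that rose beside members that fell. RefSeq windows of 300 bases, 250 before and 50 after an annotated start, were held for 5 of the 8 genes in the build GRCm38.p6. Stretches of 100 bases are shown for Slc16a3, which rose, and for Slc2a1 and Slc16a1, which fell. They are written on the plus strand, which is the strand of all 3 genes, and capitals mark the letters ACGTG or GCGTG, the core bound by hypoxia-inducible factors, on either strand. In Slc16a1 the capitals include the E-box letters CACGTG, read by MYC and MLX family factors, which overlap 2 of the core matches.
Slc16a3, chr11:120948958-120949057: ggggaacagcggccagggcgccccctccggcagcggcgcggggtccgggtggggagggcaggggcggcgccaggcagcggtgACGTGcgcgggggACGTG
Slc2a1, chr4:119108615-119108714: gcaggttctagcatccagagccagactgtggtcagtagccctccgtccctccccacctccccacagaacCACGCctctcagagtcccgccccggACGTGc
Slc16a1, chr3:104638454-104638553: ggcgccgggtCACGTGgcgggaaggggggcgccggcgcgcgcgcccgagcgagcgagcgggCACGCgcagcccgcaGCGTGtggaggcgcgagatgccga

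The ACGTG or GCGTG core was found in all 5 windows, with 5 matches in Slc16a1, 4 in Slc2a6, 2 each in Slc2a1 and Slc16a3 and 1 in Slc2a8. It was also present in 43.8% of all 32851 promoter windows. That share is not matched for base content, and the 5 windows held 55.7% to 73.7% G and C. In Slc16a3 both matches lay near the annotated start, at 27 and 14 bases before it. That start is not the only one of the gene, whose annotated span begins further upstream. The E-box CACGTG was found only in Slc16a1 among the 5, and in 7.15% of all windows. Neither AGGTCA, the core element bound by ROR receptors, nor the AP-1 letters TGAGTCA or TGACTCA were found in the 5 windows, against 16.3% and 5.2% of all windows. Among the 5 genes with a window, Slc16a3 and Slc2a8 rose and Slc2a1, Slc2a6 and Slc16a1 fell, while Slc2a3 and Bsg, which rose, and Slc16a6 were not examined. These matches describe letters in a window and not bound sites.

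Reads on genes ranged from 17659035 to 18510878 per library. Values below are the deposited normalized reads, in which each library's read counts were scaled by a single factor. Differences are fold changes of RORγtN275D over WT on the log2(normalized reads + 1) scale, tested with limma (two-sided, Benjamini-Hochberg adjusted over the 11908 genes tested, those averaging 10 normalized reads or more). WT replicate 3 stood farthest from its group, with a median chi-square of 2.96 and 3.05 times counting noise against the other WT libraries, where all other replicate pairs lay at 1.32 to 1.54. The labels do not say whether the replicates came from separate cultures or mice, so the p-values measure only the spread between these libraries. The transcripts of the T and Th17 genes Cd3e, Cd4, Il17a, Il17f and Il23r were present in all 6 libraries, at a summed level of 68851 to 72792 normalized reads in WT and 80155 to 81037 in RORγtN275D cells. Most of this sum is Il17a and Il17f, while the T cell genes Cd3e and Cd4 were lower in the mutant (log2 fold changes -0.22 and -0.27, limma adjusted p = 0.00586 and 1.16e-05). A change of 1 base cannot be checked from gene totals, and the genotype labels were used as given.

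All 8 members passed the filter on low values, and 7 had an adjusted p under 0.05, which is 87.5% of them. Of all genes tested, 50.9% were called at this threshold, and the members' share is to be read against it. The direction differed among the members: Slc2a3, Slc16a3, Slc2a8 and Bsg rose in RORγtN275D cells, while Slc2a1, Slc2a6 and Slc16a1 fell. Of all genes tested, 24.7% were called higher and 26.1% lower. The median log2 fold change of the members was 0.13, against -0.0026 over all genes tested, and the median size of the change regardless of direction was 0.20, against 0.19 over all genes tested. None of the 8 passed a 2-fold minimum, which 3.59% of all genes tested did, but Slc2a3 lay close to it and passed it under some alternatives. In these bulk libraries, fewer cells of a type and less RNA per cell cannot be told apart.

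**Figure D1:**
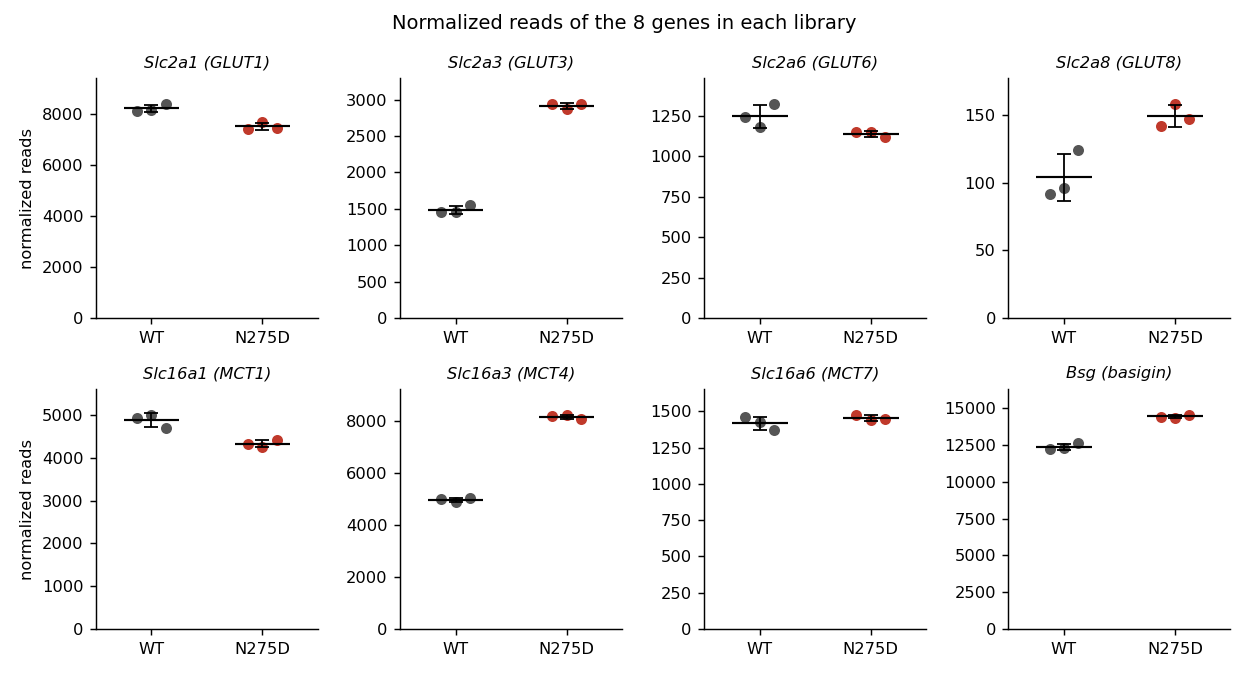
Normalized reads (y axis, each from 0) of the 8 genes in the 3 WT (grey) and 3 RORγtN275D (red, N275D) libraries, with 1 point per library, a line at the mean and bars of 1 SD. The libraries of both genotypes are far apart for Slc2a3 (1488 against 2915) and Slc16a3 (4960 against 8150), close for Slc2a1, Slc2a6 and Slc16a1, and overlapping for Slc16a6.

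Slc2a1 (gene ID 20525, chr4:119108745-119137330, plus strand) was the most abundant of the glucose transporters, and it was slightly lower in the mutant. It had 8145, 8161 and 8396 normalized reads in the WT libraries and 7427, 7694 and 7447 in the RORγtN275D libraries. Every mutant library lay below every WT library. The means were 8234 ± 141 and 7523 ± 148 (SD, n = 3 each), a difference of -8.6%, or -0.13 on the log2 scale (SE 0.03, 95% interval -0.20 to -0.06, limma adjusted p = 0.00438). Quantile normalization brought the log2 fold change to -0.075 and the limma adjusted p to 0.0596, so the call of this small decrease was lost there. It held under 15 of 16 alternatives, TMM scaling among them (-0.13, limma adjusted p = 0.00462). An exon of the gene overlaps the antisense transcript Gm12868, and the strand setting of the counting was not stated, so reads of the pair may not be separated.

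Slc2a3 (gene ID 20527, chr6:122727809-122802363, minus strand), the high-affinity carrier also known from neurons, had the largest change of the 8. The WT libraries held 1452, 1459 and 1553 normalized reads and the RORγtN275D libraries 2935, 2872 and 2938. The lowest mutant library was 1319 normalized reads above the highest WT library, far beyond the spread within either genotype. From 1488 ± 56.3 to 2915 ± 37.2 (SD, n = 3 each), the level rose 1.96-fold, a log2 fold change of 0.97 (SE 0.04, 95% interval 0.88 to 1.06, limma adjusted p = 2.83e-11). This was the 349th largest log2 fold increase of the 11908 genes tested. It lay just under the 2-fold minimum and passed it with quantile normalization (log2 fold change 1.02) and without WT replicate 3 (1.00).

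Slc2a6 (gene ID 227659, chr2:27021363-27028000, minus strand), the lysosomal GLUT6, was at 1243, 1181 and 1323 normalized reads in WT and 1149, 1152 and 1118 in RORγtN275D cells. The genotypes did not overlap, but only 29.6 normalized reads separated them, less than the SD of 71.2 among the WT libraries. The log2 fold change was -0.13 (SE 0.05, limma adjusted p = 0.0394). It lost significance under 10 of 16 alternatives, among them leaving out WT replicate 3 (-0.088, limma adjusted p = 0.0996).

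Slc2a8 (gene ID 56017, chr2:32972981-32982083, minus strand), the intracellular GLUT8, was the least abundant of the 8, with 91 to 157 reads per library. Its normalized reads were 91.8, 95.8 and 124 in WT and 142, 158 and 147 in RORγtN275D cells. All mutant libraries lay above the WT libraries, of which replicate 3 was the highest. The means of 104 ± 17.4 and 149 ± 8.0 (SD, n = 3 each) differed 1.44-fold, or by 0.53 on the log2 scale (SE 0.12, 95% interval 0.28 to 0.78, limma adjusted p = 0.00153). Without WT replicate 3 the log2 fold change was 0.66, and over all alternatives it ranged from 0.37 to 0.66. Markers of other cells reach a similar level in these libraries. The summed level of 4 B cell markers (Ms4a1, Cd79a, Cd79b and Pax5) was 100.9 to 108.0 normalized reads in WT and 138.8 to 183.6 in RORγtN275D libraries. Of the 3 tested markers, 2 were called higher. The defining marker Ms4a1 was too low to be tested, at 1.01, 0 and 0 in WT and 3.99, 4.01 and 9.88 in the mutant, so it was higher in every mutant library. The summed level of 6 myeloid markers was 89.8 to 107.9 in WT and 104.7 to 129.8 in the mutant, with Csf1r and Lyz2 under 10 on average. Within this list Adgre1 was called lower (log2 fold change -1.70, limma adjusted p = 0.000512) and Cd14 higher (0.99, limma adjusted p = 0.00673). The summed level of Cd8a, Cd8b1 and Klrb1c was 120.1 to 142.4 in WT and 171.8 to 178.7 in the mutant, with Klrb1c at 0 in every mutant library. The higher sum came from Cd8b1, with means of 98.9 and 148.5, whereas Cd8a had means of 32.6 and 27.6 and overlapping genotypes. Their part in the Slc2a8 difference was not tested. Each of these sums lies far below the normalized reads of the other 7 members. A marker sum does not give the amount that such cells add to another gene, and their part in the other members was not tested either.

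Slc16a1 (gene ID 20501, chr3:104638664-104658462, plus strand), which encodes MCT1, a carrier of lactate and pyruvate in either direction, was modestly lower in the mutant. The WT libraries held 4942, 5007 and 4699 normalized reads and the RORγtN275D libraries 4322, 4256 and 4430. The genotypes did not overlap, and WT replicate 3 was the WT library nearest to the mutant. The means were 4883 ± 162 and 4336 ± 88.2 (SD, n = 3 each), which differ by -11.2% and by -0.17 on the log2 scale (SE 0.04, 95% interval -0.25 to -0.09, limma adjusted p = 0.00136). Under quantile normalization the log2 fold change was -0.077 and the limma adjusted p 0.0976.

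Slc16a3 (gene ID 80879, chr11:120948484-120959000, plus strand), encoding MCT4, rose in the same libraries. It had 4972, 4872 and 5035 normalized reads in WT and 8167, 8218 and 8065 in RORγtN275D cells. The gap between the genotypes was 3029 normalized reads, against SDs of 82.1 and 78.3 within them. The rise from 4960 to 8150 was 1.64-fold, a log2 fold change of 0.72 (SE 0.03, 95% interval 0.64 to 0.79, limma adjusted p = 7.53e-11). Across 16 alternatives the log2 fold change stayed between 0.70 and 0.79.

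Bsg (gene ID 12215, chr10:79704358-79711979, plus strand), the chaperone of both lactate carriers and the most abundant of the 8, rose by less than Slc16a3. The WT libraries were at 12218, 12295 and 12622 normalized reads and the RORγtN275D libraries at 14408, 14356 and 14552. No library overlapped with the other genotype. The means of 12378 ± 215 and 14438 ± 102 (SD, n = 3 each) differed 1.17-fold, or by 0.22 on the log2 scale (SE 0.03, 95% interval 0.16 to 0.29, limma adjusted p = 2.6e-05). It ranked 131 by mean normalized reads among the genes tested.

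Slc16a6 (gene ID 104681, chr11:109450855-109473598, minus strand) did not pass the test. Its normalized reads were 1459, 1425 and 1369 in WT and 1476, 1439 and 1445 in RORγtN275D cells, and the genotypes overlapped. The log2 fold change was 0.04 (SE 0.04, 95% interval -0.06 to 0.13, limma adjusted p = 0.524), so an increase above 0.13 lies outside the interval. Exons of Slc16a6 overlap Amz2 and Arsg on the opposite strand, and its value may include reads of these genes if strand was not used in counting.

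**Figure D2:**
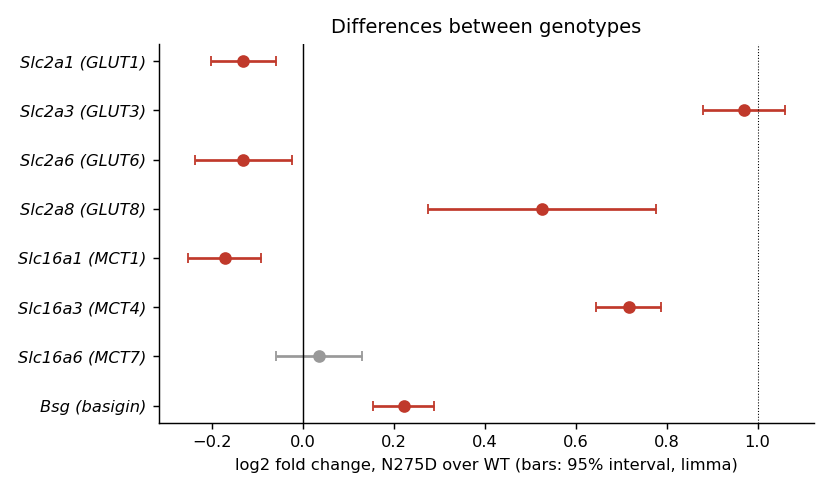
Log2 fold change of RORγtN275D over WT (x axis) for each of the 8 genes, with 95% intervals from limma; red marks genes with an adjusted p under 0.05, grey the gene without, and the dotted line a 2-fold rise. Slc2a3 (0.97), Slc16a3 (0.72) and Slc2a8 (0.53) lie clearly to the right of 0, Slc2a1, Slc2a6 and Slc16a1 lie between -0.17 and -0.13, and the interval of Slc16a6 covers 0.

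To compare levels between genes, normalized reads were divided by the length of each gene's exons in kb. On this scale, in WT cells, Bsg was highest at 7359 ± 128 normalized reads per kb (SD, n = 3), followed by Slc2a1 at 2526 ± 43.2. Slc16a3 at 1115 ± 18.5 and Slc16a1 at 1103 ± 36.7 came next and did not differ beyond their spread. Below them were Slc2a6 at 584 ± 33.3, Slc2a3 at 376 ± 14.2, Slc16a6 at 313 ± 9.95 and Slc2a8 at 49.2 ± 8.25. In RORγtN275D cells the order of Bsg (8584 ± 60.4) and Slc2a1 (2308 ± 45.5) was the same. Slc16a3 at 1832 ± 17.6 was now clearly above Slc16a1 at 980 ± 19.9, and Slc2a3 at 736 ± 9.39 was above Slc2a6 at 533 ± 8.78. Slc16a6 at 321 ± 4.36 and Slc2a8 at 70.6 ± 3.8 remained the lowest. On this scale Slc2a3 and Slc2a6 therefore switched order, and the tie between the lactate carriers was broken. The switch rests on the division by length. Without it, Slc2a3 was above Slc2a6 in both genotypes, at 1488 against 1249 normalized reads in WT and 2915 against 1140 in the mutant. The lengths pool all annotated exons of a gene and may differ from those of the transcripts expressed.

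Because a ratio of 2 genes within a library does not depend on that library's scaling factor, 5 ratios per kb were compared. The ratio of Slc2a3 to Slc2a1 was 0.147, 0.147 and 0.152 in the WT libraries and 0.325, 0.307 and 0.325 in the RORγtN275D libraries, a 2.14-fold difference. GLUT1 transcripts thus remained the more abundant of the pair in every library. Slc16a3 to Slc16a1 was 1.00, 0.968 and 1.07 in WT and 1.88, 1.92 and 1.81 in the mutant, a 1.85-fold difference. The lactate carriers were thus near parity in WT cells, and MCT4 transcripts prevailed in each mutant library. Slc2a8 to Slc2a6 had a mean of 0.084 ± 0.0101 in WT and 0.132 ± 0.00685 in the mutant (SD, n = 3 each), a 1.58-fold difference. Relative to the chaperone, Slc16a3 rose from 0.151 ± 0.0021 to 0.213 ± 0.00354 per Bsg, and Slc16a1 was at 0.15 ± 0.00739 in WT and 0.114 ± 0.00153 in RORγtN275D cells. In each of the 5 ratios the genotypes did not overlap, which gives an exact two-sided permutation p of 0.1, also after adjustment over the 5, and this is the smallest value that 3 libraries against 3 allow. Apart from Slc16a3 to Bsg, each ratio sets a gene that rose against a gene that fell, both without overlap. The non-overlap of these ratios, and with it their p, therefore followed from the single genes and adds no evidence beyond them. Genotypes did not overlap in 57.7% of all single genes tested, and the share among ratios of genes was not computed.

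**Figure D3:**
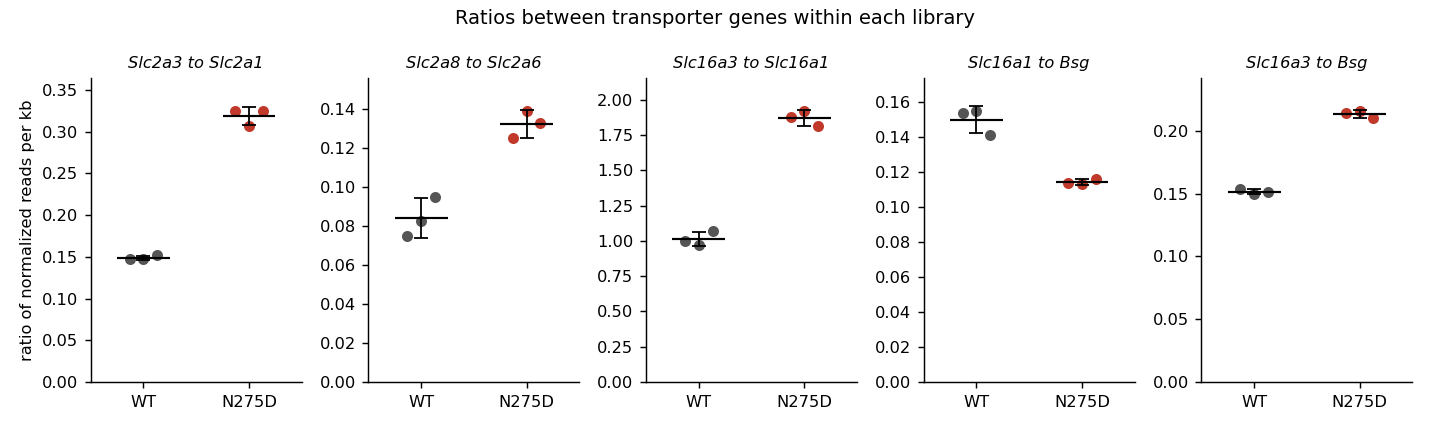
Ratio of normalized reads per kb (y axis, each from 0) between the named genes in each of 3 WT (grey) and 3 RORγtN275D (red, N275D) libraries, with lines at the means and bars of 1 SD. The ratio of Slc2a3 to Slc2a1 goes from 0.149 to 0.319 and that of Slc16a3 to Slc16a1 from 1.01 to 1.87, while that of Slc16a1 to Bsg is lower in the mutant.

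Summed over Slc2a1, Slc2a3, Slc2a6 and Slc2a8, glucose transporter transcripts amounted to 3490, 3470 and 3645 normalized reads per kb in WT and 3624, 3699 and 3619 in RORγtN275D cells. These values overlapped, with means 3.2% apart. The overlap came from WT replicate 3, and without it the genotypes did not overlap and the mutant mean was 4.8% higher. The share of Slc2a1 in this sum was 71.5% ± 0.755 in WT and 63.3% ± 0.487 in the mutant, and the share of Slc2a3 was 10.6% ± 0.125 and 20.2% ± 0.501 (SD, n = 3 each). Slc2a6 made up 16.5% and 14.6%, and Slc2a8 1.39% and 1.93%. The small difference of the totals depends on the scale: without division by length it was 5.9% and with quantile normalization 6.7%, in both cases without overlap. For the lactate carriers Slc16a1 and Slc16a3, the sums were 2234, 2226 and 2193 in WT and 2812, 2809 and 2814 in the mutant, 26.8% higher. Slc16a3 took up 50.3% ± 1.22 of this sum in WT and 65.2% ± 0.68 in RORγtN275D cells (SD, n = 3 each).

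**Figure D4:**
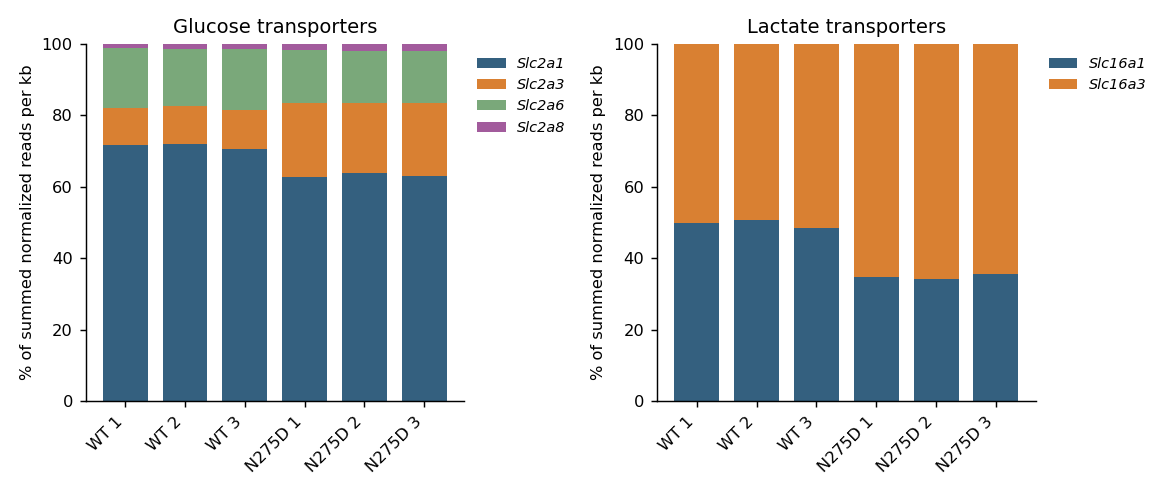
Share of each gene (y axis, %) in the summed normalized reads per kb of 4 glucose transporters (left) and 2 lactate transporters (right), with 1 bar per library (WT and RORγtN275D, N275D). The Slc2a3 part is 10.6% on average in WT and 20.2% in the mutant, and the Slc16a3 part 50.3% and 65.2%.

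Most of the other genes of both families were too low to be tested. Of the 8 other SLC2 genes, 1 passed the filter, the urate carrier Slc2a9, with means of 42.1 and 36.9 normalized reads in WT and RORγtN275D cells (log2 fold change -0.18, limma adjusted p = 0.437). The others, among them the insulin-responsive Slc2a4, had at most 12.1 normalized reads in any library. Of the 11 other SLC16 genes, 2 passed the filter and both were called lower, as were 26.1% of all genes tested. The aromatic amino acid carrier Slc16a10 fell from 595 ± 12.3 to 519 ± 10.3 normalized reads (SD, n = 3 each, log2 fold change -0.20, limma adjusted p = 0.00731). Slc16a13 went from 240 ± 20.1 to 203 ± 16.9 (log2 fold change -0.24, limma adjusted p = 0.0344), a call that several alternatives removed. The 7 sodium-coupled carriers of glucose and monocarboxylates in the table summed to at most 18.2 normalized reads per library, so none was tested.

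Among 12 chaperones and trafficking genes of the transporters, all tested, 4 were called higher, 3 lower and 5 were not called, and the median over the list was 0.06 on the log2 scale. The 7 calls lie near the 50.9% called over all genes tested. The largest rises were those of Txnip and Arrdc4, arrestin family proteins that promote the removal of GLUT1 from the cell surface and whose genes are targets of glucose sensing MLX complexes. Txnip had 2322, 2241 and 2224 normalized reads in WT and 5272, 5317 and 5360 in RORγtN275D cells, a log2 fold change of 1.23 (SE 0.04, limma adjusted p = 4.51e-13). Arrdc4 was at 62.6, 62.5 and 74.7 normalized reads in WT and 172, 163 and 175 in the mutant, a log2 fold change of 1.34 (SE 0.11, limma adjusted p = 6.94e-08). Both genes were thus higher in every mutant library, with larger log2 fold changes than any of the 8 members. Tbc1d1, which encodes a GTPase-activating protein for Rab proteins of transporter vesicles, rose by 0.42 on the log2 scale (limma adjusted p = 1.16e-06), and its relative Tbc1d4 by 0.32 (limma adjusted p = 0.0356). Snx27, the sorting nexin that returns GLUT1 from endosomes to the surface with the retromer, had the largest fall of the list, by 0.24 (limma adjusted p = 0.000116). The retromer subunits Vps26a, Vps29 and Vps35 had log2 fold changes of 0.07, 0.05 and -0.02, overlapping genotypes and limma adjusted p of 0.411, 0.413 and 0.814. Of the basigin relatives that also escort monocarboxylate carriers, Nptn fell by 0.18 (limma adjusted p = 0.0029), whereas Emb was at -0.01 (limma adjusted p = 0.927).

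Of 10 genes for the steps just inside the membrane, 8 were tested, of which 2 were called higher, 2 lower and 4 were not called (median log2 fold change 0.02), a share near the 50.9% called over all genes tested. The hexokinases, which trap glucose as glucose 6-phosphate, went in opposite directions. Hk2 fell from 11740 ± 227 to 8243 ± 106 normalized reads (SD, n = 3 each, log2 fold change -0.51, limma adjusted p = 3.38e-09), while Hk1 rose by 0.36 (limma adjusted p = 5.99e-07). Gpi1, the next enzyme of glycolysis, rose by 0.23 (limma adjusted p = 2.56e-05). Ldha, which forms lactate from pyruvate, had a log2 fold change of 0.00 (limma adjusted p = 0.934), and Ldhb, the form that favours the reverse reaction, fell by 0.37 (limma adjusted p = 0.000159). The mitochondrial pyruvate carrier genes Mpc1 and Mpc2 had log2 fold changes of 0.09 and -0.15 (limma adjusted p = 0.199 and 0.0708).

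**Figure D5:**
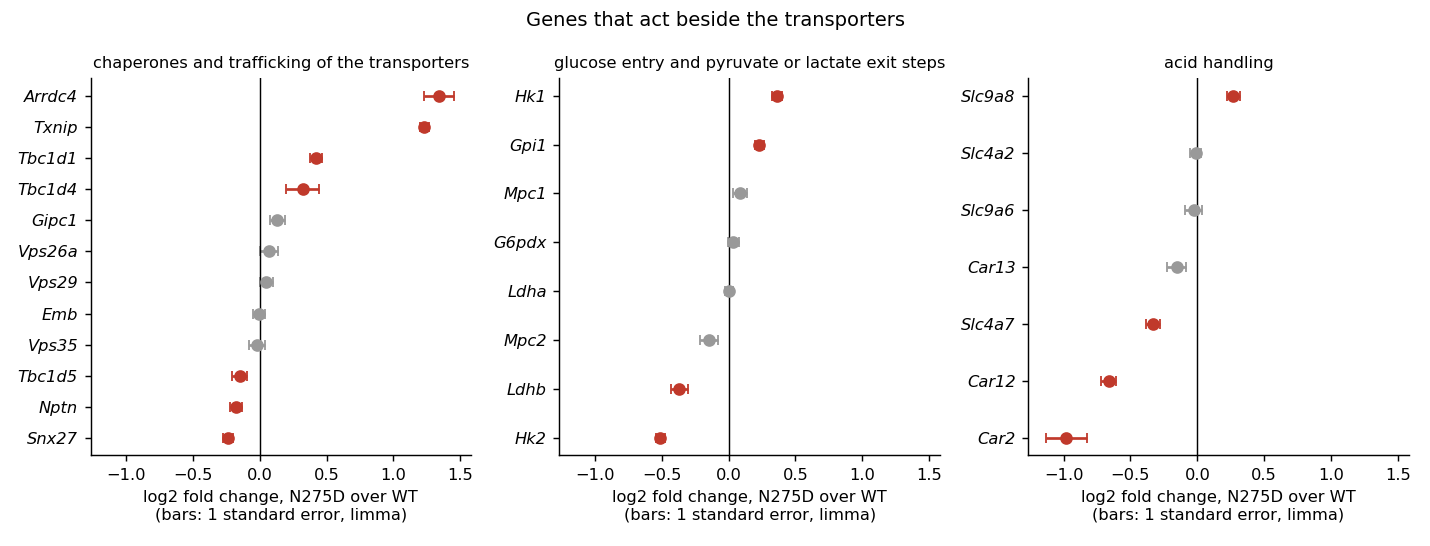
Log2 fold change of RORγtN275D over WT (x axis) for tested genes of 3 lists, with bars of 1 standard error from limma; red marks an adjusted p under 0.05, grey others. Txnip (1.23) and Arrdc4 (1.34) lie farthest to the right on the left panel, Hk2 (-0.51) farthest to the left on the middle one, and Car2 (-0.98) and Car12 (-0.66) on the right one.

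Of 8 transcription factors known to act on transporter genes, 7 were tested, with 5 called higher, 1 lower and a median log2 fold change of 0.17. Over all genes tested, 24.7% were called higher and 26.1% lower, with a median of -0.0026. Hif1a, the oxygen-regulated subunit of HIF-1, rose by 0.78 (limma adjusted p = 4e-10) and its partner Arnt by 0.32 (limma adjusted p = 1.59e-05). Epas1, which encodes HIF-2α, had the largest rise at a low level, from 20.4 ± 3.43 to 57.1 ± 4.75 normalized reads (SD, n = 3 each, log2 fold change 1.45, limma adjusted p = 8.93e-06). Myc, a regulator of metabolic genes in activated T cells, rose by 0.17 (limma adjusted p = 0.000585). Mlx was the gene that fell, by 0.28 (limma adjusted p = 0.000303), and its partner Mlxip was at 0.01 (limma adjusted p = 0.87).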

How the data were processed

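RNA-seq libraries of 3 WT and 3 RORγtN275D Th17 cells, grouped by the genotype in the labels, were analysed. According to the methods, reads were trimmed, mapped on mm10 by STAR and assigned to genes by featureCounts. The strand setting is not given in the sources used here. The labels name poly-A selection and a directional kit, whereas the methods describe strand-specific DNBSEQ libraries. The signal values that the authors deposited are normalized reads, that is, each library's counts times a single factor (0.982 to 1.01). In all 6 libraries 100% of values were whole multiples of it within 1e-06, so reads were recovered. The columns the authors deposited with log2 fold changes, q-values, group averages and a transcript number were not used, the first 2 of which are their own comparison. The number of unused per-sample columns was 0.

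The whole table was fitted with limma 3.58.1 (R 4.3.3, trended prior, 12.0 prior degrees of freedom) on log2(normalized reads + 1), for genes with a mean of at least 10, with no block. The log2 fold change of low genes is understated by the pseudocount. The threshold was an adjusted p of 0.05. Within genotypes, the SD had a median of 0.08 (log2). Recovered reads, tested with edgeR 4.0.16, gave 6085 calls, against 6056 with limma. Ratios were tested with exact permutation tests. Other alternatives were pseudocounts 0.1 and 10, other filters, TMM, quantile scaling, no trend, the replicate number as a block, DESeq2 1.42.0 and each library left out. Scripts were tested on simulated data.

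The members and lists were chosen with earlier results of these data known. Named genes are the members, the largest called rise and fall of each list, and genes whose role a sentence needs. Lists are described by counts, without set tests, and 4 of their genes are not reported here. Positions and promoters are RefSeq GRCm38.p6 (mm10; 16134 of 16244 genes matched), exon lengths GENCODE M21.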

Additional observations from a re-analysis of the deposited data

How the results depend on the processing

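No result changed direction under any alternative, and the calls of Slc2a3, Slc2a8, Slc16a3 and Bsg held under all 16. Of these genes, Slc2a8 varied most in size, with log2 fold changes from 0.37 to 0.66. Quantile normalization left 4 of the 7 called members, with Slc2a1 at -0.075 (limma adjusted p = 0.0596), Slc16a1 at -0.077 (0.0976) and Slc2a6 at -0.10 (0.109). It put the log2 differences of the ratios of Slc2a8 to Slc2a6, Slc16a1 to Bsg and Slc16a3 to Bsg at 0.48, -0.34 and 0.53, and the summed glucose and lactate transporter levels 6.7% and 34.3% higher. Without division by length the glucose sum was 5.9% higher. Leaving out single libraries gave 2.2% to 4.8% for it and 26.1% to 27.2% for the lactate sum. Slc2a6 also lost its call with genes of a mean above 0 (-0.13, adjusted p = 0.0519), without a trend (-0.13, 0.0899), in DESeq2 (-0.13, 0.0889) and in 5 of 6 fits that left out 1 library (log2 fold change over all 6 fits -0.17 to -0.088). Replicate numbers did not pair the libraries. After the genotype mean of each gene was subtracted, WT and mutant libraries of the same number had correlations of -0.045, 0.041 and -0.083. The replicate block moved Slc2a6 to a limma adjusted p of 0.0685 (log2 fold change -0.13) and gave 5727 calls. At 2-fold, 427 genes were called, against 259 with a pseudocount of 10, 703 with a mean above 0, 162 with a mean of at least 100 and 1130 with a 1.5-fold minimum. A lower fold minimum calls more genes by definition. The cause of the other differences was not tested. At 91 to 157 reads per library, counting limits the precision of Slc2a8 more than that of the other members.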

Other observations

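Lactate leaves the cell with a proton, and of 8 genes that handle acid and bicarbonate, 7 were tested, with 1 called higher, 3 lower and 3 not called by limma (median log2 fold change -0.15, against -0.0026 over all genes tested, of which 50.9% were called). The largest falls were those of Car2 and Car12, carbonic anhydrases that interconvert carbon dioxide and bicarbonate. Car2 had 92.1 ± 10.4 normalized reads in WT and 46.5 ± 8.13 in RORγtN275D cells (SD, n = 3 each) and fell by 0.98 on the log2 scale (limma adjusted p = 6.76e-05). Car12, an enzyme of the outer cell surface, fell from 1141 ± 10.2 to 722 ± 52.4 (log2 fold change -0.66, limma adjusted p = 8.64e-08). Of the other carbonic anhydrases, Car13 was at -0.15 (limma adjusted p = 0.0826). Car9, which is known as a hypoxia target, was too low to be tested, at 8.98 and 7.97 normalized reads on average. Slc4a7, a sodium bicarbonate importer, fell by 0.33 on the log2 scale (limma adjusted p = 0.000105), and Slc9a8, a sodium/proton exchanger of the Golgi, rose by 0.27 (limma adjusted p = 0.000235).

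Over the 6 libraries, the genes whose log2 levels followed Slc2a1 most closely were Hypk, Lsm2 and Wdr5, with Pearson's r of 0.9968, 0.9966 and 0.9957 (log2 fold changes -0.30, -0.52 and -0.18). Those closest to Slc16a3 were Arhgap25, Als2cl and Pck2, with r of 0.9997, 0.9995 and 0.9995 (log2 fold changes 0.24, 0.94 and 0.99). With r above 0.95 there were 776 genes for Slc2a1 and 1161 for Slc16a3. These correlations are descriptions, since the points share 2 genotypes and any gene that separates them ranks high.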
